A study of Homo sapiens with 6 samples.

Results

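The kinesin and dynein genes encode the motors that move along microtubules, and 50 of the 14884 named genes of the arrays belonged to these families. They were taken by gene symbol alone, as every symbol that starts with KIF or KLC and a digit, or with DYNC, DYNL or DNAH, and where a gene had several probe sets their mean was used. By function they were divided into 13 mitotic kinesins, 17 transport kinesins with their light chains, 13 other kinesins and 5 chains of cytoplasmic dynein, and 2 antisense transcripts that carry the name of a motor gene completed the set. Of the 19 listed chains of cytoplasmic dynein 14 had no named probe set, among them all DYNC1 chains of the dynein 1 motor. None of the 13 listed heavy chains of axonemal dynein had one, so these heavy chains were not analysed here. DNAH8-AS1, an antisense transcript, was the only member with a DNAH symbol.

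The cells were SK-CO15, a line from a human colonic adenocarcinoma, in 3 NHE3kd samples (replicates 2, 3 and 10) and 3 Ctrl samples (replicates 1, 4 and 9). NHE3kd cells had been transduced with a lentivirus with pooled shRNAs that target SLC9A3 (the sodium-proton exchanger NHE3) and are driven by the U6 promoter, and Ctrl cells with one that carries scrambled shRNA. In both groups the vector also carried EGFP and puromycin resistance, the cells had been sorted for bright EGFP and kept under puromycin, and they were a mixed population rather than a clone. RNA was taken at confluence and hybridized to Affymetrix Human Gene 2.0 ST arrays. The deposited values are log2 differences from the mean of the Ctrl arrays, so each gene has a Ctrl mean of 0 and no expression level, and they are given in the order NHE3kd 2, 3 and 10, then Ctrl 1, 4 and 9. Hence the levels of motors could not be ranked against each other, and the 10 measured of 13 listed markers of colonic epithelium could be given only as changes: VIL1, which encodes villin of the brush border, was higher in NHE3kd cells (0.77), and the other 9 did not pass the test, among them KRT20, a keratin of differentiated colonic cells, with a larger change in the other direction (-0.86, adjusted p = 0.081 by limma). Of the 10 markers 5 lay above and 5 below 0, with a median of -0.026. SLC9A3 had no named probe set, and its knockdown could not be checked in these RNA values. By Western blot the study reported less NHE3 protein in NHE3kd cells than in Ctrl cells.

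Kinesins use ATP to step along microtubules, mostly towards the plus end, whereas dyneins step towards the minus end. Transport kinesins carry vesicles, organelles and ciliary proteins in resting and dividing cells alike. Mitotic kinesins build the spindle, move the chromosomes and complete cytokinesis, and their mRNAs accumulate in G2 and M phase. In resting cells the promoters of many such genes are held silent by the DREAM complex at a short element called the cell cycle genes homology region (CHR), and in cycling cells B-MYB and FOXM1 act there, often with NF-Y at a nearby CCAAT box. Dynein 1 is the general minus-end carrier of the cytoplasm, dynein 2 returns material from the tip of the cilium, and axonemal dyneins drive the beat of motile cilia, which colonic epithelium lacks.

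The promoters of some motor genes that rose, and of others to set beside them, are shown first, since motif matches in them are described with the changes. Each window runs from 250 bases before to 50 bases after the start of transcription annotated by RefSeq on GRCh38.p14, 5′ to 3′ on the gene's strand, and capitals mark the motifs searched for on either strand. CHR elements read TTTGAA or, in a variant form, TTCGAA, and the CCAAT box is named by its letters. E2F motifs read TTTCCCGC or the related TTTGGCGC, or else the shifted forms TTCCCGCC and, for the other motif, TTGGCGCC. KIF20B (chr10:89701340-89701639, plus strand), KIF11 (chr10:92592880-92593179, plus strand) and KIF23 (chr15:69414099-69414398, plus strand) are 3 of the 4 mitotic kinesins with the largest rise, KIF2C (chr1:44739587-44739886, plus strand) is a mitotic kinesin that rose and has no match, KIF4A (chrX:70289854-70290153, plus strand) and KIF4B (chr5:155013505-155013804, plus strand) are a pair of related genes, KIF24 (chr9:34329219-34329518, minus strand) is a kinesin of another class that rose, and KIF3C (chr2:25982448-25982747, minus strand) is the motor gene with the largest fall.
KIF20B: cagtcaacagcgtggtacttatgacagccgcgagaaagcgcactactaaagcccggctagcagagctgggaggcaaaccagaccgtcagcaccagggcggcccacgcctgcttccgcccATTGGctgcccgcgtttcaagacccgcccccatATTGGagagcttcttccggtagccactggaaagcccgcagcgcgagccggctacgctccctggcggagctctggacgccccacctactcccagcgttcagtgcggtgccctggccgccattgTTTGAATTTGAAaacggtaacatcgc
KIF11: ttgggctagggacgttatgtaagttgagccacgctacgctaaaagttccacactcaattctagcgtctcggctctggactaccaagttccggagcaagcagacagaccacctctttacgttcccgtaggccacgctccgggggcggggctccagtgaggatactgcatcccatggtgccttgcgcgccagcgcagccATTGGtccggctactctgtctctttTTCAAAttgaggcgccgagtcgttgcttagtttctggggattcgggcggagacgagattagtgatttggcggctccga
KIF23: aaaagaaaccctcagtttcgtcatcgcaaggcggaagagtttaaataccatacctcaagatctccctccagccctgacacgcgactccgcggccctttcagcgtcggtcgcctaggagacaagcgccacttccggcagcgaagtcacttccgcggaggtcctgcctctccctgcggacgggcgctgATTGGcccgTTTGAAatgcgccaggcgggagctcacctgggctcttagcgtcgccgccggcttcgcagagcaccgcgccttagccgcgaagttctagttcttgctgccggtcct
KIF2C: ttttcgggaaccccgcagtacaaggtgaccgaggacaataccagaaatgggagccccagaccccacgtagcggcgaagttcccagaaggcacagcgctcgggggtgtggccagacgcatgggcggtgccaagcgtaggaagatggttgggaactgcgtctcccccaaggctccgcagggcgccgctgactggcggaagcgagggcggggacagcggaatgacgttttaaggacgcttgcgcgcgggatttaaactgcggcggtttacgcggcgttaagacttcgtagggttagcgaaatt
KIF4A: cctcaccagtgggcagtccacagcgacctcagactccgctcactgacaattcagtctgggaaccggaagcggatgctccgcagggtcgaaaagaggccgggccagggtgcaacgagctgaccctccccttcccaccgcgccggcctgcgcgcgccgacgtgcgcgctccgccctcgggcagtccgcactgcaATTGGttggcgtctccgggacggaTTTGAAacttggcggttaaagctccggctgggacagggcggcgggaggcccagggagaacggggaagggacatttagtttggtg
KIF4B: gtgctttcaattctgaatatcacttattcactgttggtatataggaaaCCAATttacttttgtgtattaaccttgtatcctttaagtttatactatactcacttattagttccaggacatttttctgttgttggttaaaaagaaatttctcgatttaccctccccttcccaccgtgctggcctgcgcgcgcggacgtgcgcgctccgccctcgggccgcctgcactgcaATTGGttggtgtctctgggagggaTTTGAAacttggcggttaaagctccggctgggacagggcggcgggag
KIF24: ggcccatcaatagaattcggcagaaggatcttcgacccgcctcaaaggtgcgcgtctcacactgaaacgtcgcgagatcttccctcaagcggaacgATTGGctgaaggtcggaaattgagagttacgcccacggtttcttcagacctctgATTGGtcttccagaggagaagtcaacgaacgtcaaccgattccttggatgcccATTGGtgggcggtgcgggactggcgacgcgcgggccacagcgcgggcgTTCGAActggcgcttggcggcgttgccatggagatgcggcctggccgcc
KIF3C: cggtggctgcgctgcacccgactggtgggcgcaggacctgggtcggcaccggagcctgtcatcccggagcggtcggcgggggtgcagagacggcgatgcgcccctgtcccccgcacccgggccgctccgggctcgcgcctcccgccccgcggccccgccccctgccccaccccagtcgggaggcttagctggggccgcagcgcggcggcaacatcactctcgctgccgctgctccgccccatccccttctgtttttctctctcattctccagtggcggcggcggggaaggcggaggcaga

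Most mitotic kinesins were higher in NHE3kd cells than in Ctrl cells. Of the 13 measured, 10 rose, 0 fell and 3 did not pass the test, beside 9.96% of all named genes that were higher and 4.51% that were lower. The test was limma's moderated test, two-sided, with Benjamini-Hochberg adjustment over 48144 probe sets and a threshold of 0.05. All 13 changes lay above 0, with a median log2 fold change of 0.89, while the median over all named genes was -8.2e-04. For 12 of the 13 genes the NHE3kd arrays were all above the Ctrl arrays, and over the named genes this held for 21.1%. KIF2A, which shortens microtubules as KIF2C and KIF2B do, was counted with the other kinesins and lay below 0 (-0.16). That all 13 changes lay above 0 thus depends on how the classes were divided. Nothing in the labels says whether replicates were grown as separate cultures, and the p-values therefore rest on a spread between samples that may be only technical. With 3 arrays against 3 an exact permutation test of 1 gene cannot go below p = 0.1.

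**Figure D1:**
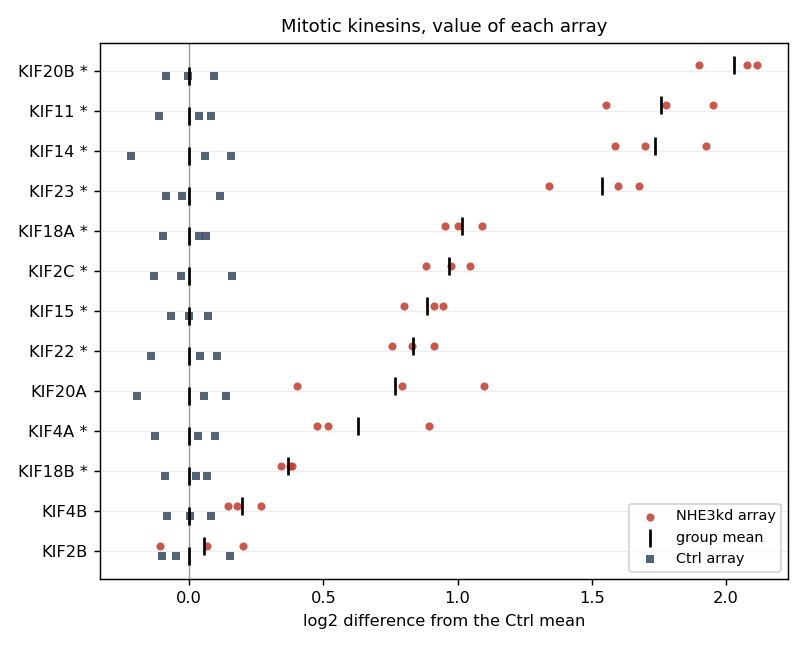
Value of each array for the 13 mitotic kinesins, as log2 difference from the Ctrl mean (horizontal axis), with NHE3kd arrays as circles above Ctrl arrays as squares, group means as bars, and an asterisk for an adjusted p under 0.05. For each gene from KIF20B to KIF4B the 3 NHE3kd arrays sit to the right of the 3 Ctrl arrays, and for KIF2B they overlap.

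The 4 largest changes were those of KIF20B, KIF11, KIF14 and KIF23. KIF20B, a plus-end motor needed late in cytokinesis, measured 1.90, 2.08 and 2.12 on the NHE3kd arrays, against 0.091, -0.087 and -0.0048 on the Ctrl arrays. The groups were far apart, and its log2 fold change was 2.03 (adjusted p = 0.0014, SE 0.076), or 4.09-fold. KIF11 (Eg5), which slides antiparallel microtubules and thereby separates the spindle poles, measured 1.55, 1.95 and 1.78 on the NHE3kd arrays, against 0.080, 0.034 and -0.11 on the Ctrl arrays. Its lowest NHE3kd array was NHE3kd 2, still well above all Ctrl arrays, and the log2 fold change was 1.76 (adjusted p = 0.0024, SE 0.11), or 3.39-fold. KIF14, which acts at the midbody, measured 1.93, 1.70 and 1.58 on the NHE3kd arrays, against 0.16, 0.060 and -0.22 on the Ctrl arrays, with a log2 fold change of 1.74 (adjusted p = 0.0031, SE 0.13). Here NHE3kd 2 was the highest array and not the lowest, so that the order of NHE3kd arrays was not shared by the class. KIF23 (MKLP1), the motor subunit of the centralspindlin complex, measured 1.34, 1.60 and 1.68 on the NHE3kd arrays, against 0.12, -0.027 and -0.089 on the Ctrl arrays, with a log2 fold change of 1.54 (adjusted p = 0.0025, SE 0.10). These 4 genes also passed when limma tested each change against 1.5-fold.

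The next 4 mitotic kinesins by size of the change had log2 fold changes of 0.83 to 1.01. KIF18A, which damps the movements of chromosomes at the metaphase plate, measured 1.00, 0.95 and 1.09 on the NHE3kd arrays, against 0.061, 0.037 and -0.098 on the Ctrl arrays, a log2 fold change of 1.01 (adjusted p = 0.0019, SE 0.060). KIF2C (MCAK), which takes apart microtubules at centromeres, measured 1.05, 0.88 and 0.97 on the NHE3kd arrays, against -0.029, 0.16 and -0.13 on the Ctrl arrays, a log2 fold change of 0.97 (adjusted p = 0.0048, SE 0.087). Both genes had compact groups that did not overlap. KIF15, a partner of KIF11 in keeping the spindle bipolar, measured 0.80, 0.91 and 0.95 on the NHE3kd arrays, against 0.069, -0.0012 and -0.067 on the Ctrl arrays, with a log2 fold change of 0.89 (adjusted p = 0.0023, SE 0.056). KIF22 (Kid), which pushes chromosome arms outwards, measured 0.91, 0.83 and 0.75 on the NHE3kd arrays, against 0.040, 0.10 and -0.14 on the Ctrl arrays, with a log2 fold change of 0.83 (adjusted p = 0.0053, SE 0.078). The smallest gap between the groups among these 4 genes was that of KIF22, and it exceeded the range of either group.

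Smaller or less certain changes were found for the remaining mitotic kinesins. KIF4A, a motor of chromosome arms and of the spindle midzone, measured 0.47, 0.89 and 0.52 on the NHE3kd arrays, against 0.033, 0.096 and -0.13 on the Ctrl arrays, and its log2 fold change was 0.63 (adjusted p = 0.042, SE 0.13). NHE3kd 3 stood above the other NHE3kd arrays, and the call was lost without any 1 of the 6 arrays (adjusted p up to 0.10). KIF18B, which limits the length of astral microtubules, measured 0.38, 0.38 and 0.34 on the NHE3kd arrays, against -0.092, 0.066 and 0.026 on the Ctrl arrays, a log2 fold change of 0.37 (adjusted p = 0.013, SE 0.049) that was no longer called without NHE3kd 3 (adjusted p = 0.061). The NHE3kd arrays of KIF18B were the closest together of any mitotic kinesin (SD 0.022, n = 3). KIF20A (MKLP2), which carries the chromosomal passenger complex to the midzone, measured 0.40, 0.79 and 1.10 on the NHE3kd arrays, against -0.19, 0.14 and 0.055 on the Ctrl arrays. Its groups did not overlap, but the spread of its NHE3kd arrays was the widest of the class (SD 0.35, n = 3), and the log2 fold change of 0.77 (adjusted p = 0.074, SE 0.19) passed only without NHE3kd 2 (adjusted p = 0.037) or with named probe sets alone.

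KIF4B and KIF2B were the mitotic kinesins with the smallest differences. KIF4B is an intronless copy of KIF4A on another chromosome, and in the longest closely matching stretch of the windows printed above 136 of 146 bases are identical (93.2%). KIF4B measured 0.14, 0.27 and 0.18 on the NHE3kd arrays, against 0.0044, 0.079 and -0.084 on the Ctrl arrays, with a log2 fold change of 0.20 (adjusted p = 0.11, SE 0.057), and signal of the genes KIF4A and KIF4B cannot be told apart where probes match both. KIF2B, a relative of KIF2C, measured 0.20, -0.11 and 0.066 on the NHE3kd arrays, against -0.048, 0.15 and -0.10 on the Ctrl arrays, so that the groups overlapped, and the log2 fold change was 0.053 (adjusted p = 0.86, SE 0.10).

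Across the class no single array set the result. The median over the 13 genes was 0.91, 0.89 and 0.97 on NHE3kd 2, 3 and 10, against 0.040, 0.066 and -0.098 on Ctrl 1, 4 and 9. Within the Ctrl group, Ctrl 9 was the lowest array for 10 of the 13 genes and the highest for 0, while within the NHE3kd group NHE3kd 2 was the lowest for 7 and the highest for 4. These shifts within groups were small beside the distance between the groups. Of the 10 genes called, 8 passed the test without each of the 6 arrays in turn, with adjusted p up to 0.031, and the other 2 were KIF4A and KIF18B. Of the same 10 genes 6 were called after quantile normalization, 8 when the variances were not moderated, and 0 when each group also had its own variance (12 of the 13 had an unadjusted p under 0.05). That last test called 2 of all named genes.

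The 14 markers of proliferation moved with the mitotic kinesins: 13 were higher and 0 lower, beside 9.96% and 4.51% of all named genes. Their median log2 fold change was 1.19, and MKI67 (2.06) and the mitotic kinase CDK1 (1.76) were among those higher. The part of cell division in the rise of the kinesins was not tested. MCM2, which loads onto replication origins, did not pass (0.27, adjusted p = 0.052). A larger share of dividing cells and more of these mRNAs per dividing cell cannot be told apart in RNA of whole cultures. Spindle and midzone proteins that work with the kinesins were also higher, 10 of 12 measured and 0 lower, beside 9.96% and 4.51% of all named genes, with a median of 0.71. PRC1, the bundling protein that recruits KIF4A, rose by 1.01 (SE 0.098), and AURKB, the kinase of the passenger complex that KIF20A carries, rose by 0.92 (SE 0.092). CEP55, which organizes abscission, had the largest rise of the list (1.70, SE 0.23). RACGAP1, the partner of KIF23 in centralspindlin, measured 0.15, 0.077 and 0.13 on the NHE3kd arrays, against -0.0031, -0.037 and 0.040 on the Ctrl arrays. The groups did not overlap, but the log2 fold change of 0.12 (adjusted p = 0.14, SE 0.037) did not pass, while that of KIF23 was 1.54. KIFC1, a minus-end kinesin of the spindle whose symbol lies outside the rule, rose by 0.37 (SE 0.074, adjusted p = 0.040), and CENPE was not analysed here.

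Of the transport kinesins 3 were lower, 0 were higher and 14 did not pass the test, beside 4.51% of named genes that were lower and 9.96% that were higher. Of the 17 changes 13 lay below 0, as did those of 7490 of the 14884 named genes. The median log2 fold change of the class was -0.10, and its largest positive one was that of KIF5B (0.35). It was near that of the mitotic kinesin KIF18B (0.37) and above those of KIF4B (0.20) and KIF2B (0.053), mitotic kinesins that did not pass. KIF3C, a kinesin-2 motor best known from neurons, measured -0.75, -0.73 and -0.40 on the NHE3kd arrays, against -0.027, -0.11 and 0.14 on the Ctrl arrays. Every NHE3kd array was below every Ctrl array, with NHE3kd 10 closest to them, and the log2 fold change was -0.63 (adjusted p = 0.032, SE 0.12). KIF1A, a kinesin-3 that carries precursors of synaptic vesicles, measured -0.41, -0.72 and -0.41 on the NHE3kd arrays, against -0.067, -0.010 and 0.077 on the Ctrl arrays, a log2 fold change of -0.51 (adjusted p = 0.034, SE 0.098). KIF1C, a widely expressed kinesin-3 of vesicle transport, measured -0.45, -0.47 and -0.56 on the NHE3kd arrays, against 0.033, 0.045 and -0.077 on the Ctrl arrays, a log2 fold change of -0.49 (adjusted p = 0.0067, SE 0.051). Of these 3, KIF1C had the closest replicates and kept the call without any single array (adjusted p up to 0.034). With 1 array left out, KIF3C was called only without NHE3kd 10 and otherwise had an adjusted p up to 0.12, and KIF1A was called only without NHE3kd 3 and otherwise had one up to 0.11. After quantile normalization none of the 17 passed, and 5 had an unadjusted p under 0.05.

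**Figure D2:**
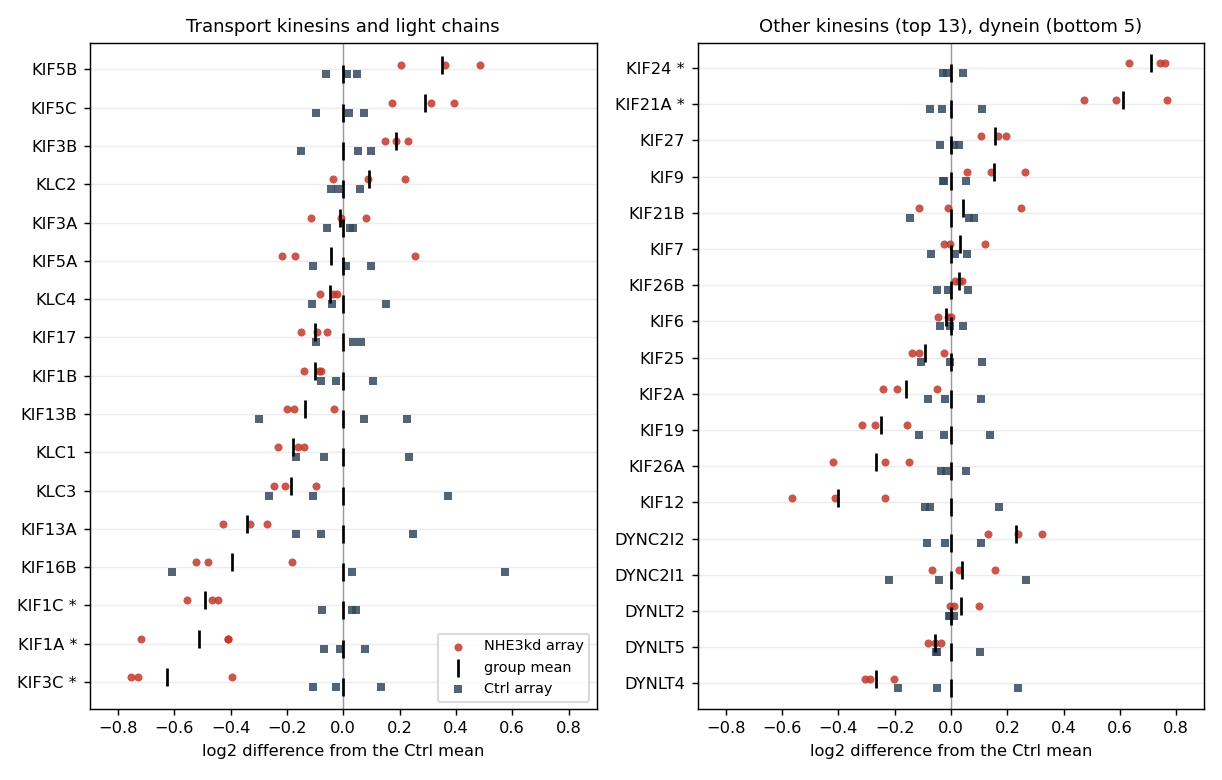
Value of each array for 17 transport kinesins and light chains (left), and for 13 other kinesins above 5 chains of cytoplasmic dynein (right), as log2 difference from the Ctrl mean, drawn as for the mitotic kinesins. Only KIF1C, KIF1A and KIF3C (lower) and KIF24 and KIF21A (higher) carry the asterisk of an adjusted p under 0.05, and all values lie between -0.75 and 0.77.

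Kinesin-1, which carries many cargoes outwards from the cell centre, had no member that passed. Its ubiquitous heavy chain KIF5B measured 0.36, 0.49 and 0.20 on the NHE3kd arrays, against 0.049, 0.012 and -0.061 on the Ctrl arrays, and the log2 fold change of 0.35 (adjusted p = 0.055, SE 0.079) narrowly missed the threshold and passed under 4 alternatives, such as without NHE3kd 10 (adjusted p = 0.035). KIF5C, a heavy chain known mostly from neurons, measured 0.31, 0.17 and 0.39 on the NHE3kd arrays, against 0.074, 0.022 and -0.096 on the Ctrl arrays, with a log2 fold change of 0.29 (adjusted p = 0.076, SE 0.074). For both genes the NHE3kd arrays lay above the Ctrl arrays, as they did for 21.1% of the named genes. For KIF5A, the third heavy chain, the groups overlapped (-0.045, 95% interval -0.39 to 0.30). The light chains, which bind the cargo, had log2 fold changes of -0.18 for KLC1, 0.091 for KLC2, -0.18 for KLC3 and -0.047 for KLC4, and none had groups without overlap. The 8 measured cargo adaptors of kinesin-1 also had 0 calls, beside 9.96% of named genes that were higher and 4.51% that were lower. Their median was -0.075. Of these adaptors 2 had an unadjusted p under 0.05 by limma, as did 4838 of the 14884 named genes.

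Kinesin-2 motors of the cilium did not pass either. KIF3B measured 0.15, 0.23 and 0.19 on the NHE3kd arrays, against -0.15, 0.053 and 0.097 on the Ctrl arrays (0.19, adjusted p = 0.21), its partner KIF3A had a log2 fold change of -0.013 with a 95% interval of -0.16 to 0.13, and KIF17 one of -0.10 with an interval of -0.23 to 0.034. KIFAP3, the non-motor subunit that joins KIF3A and KIF3B and lies outside the rule, rose by 0.37 (SE 0.040, adjusted p = 0.0074). Genes of the intraflagellar transport particles, the cargo trains of these motors, were higher for 8 of 21 measured and lower for 0, beside 9.96% and 4.51% of all named genes, with a median of 0.32. IFT74 (1.00), WDR35 (0.76) and IFT81 (0.71) had the largest rises among them. Of the remaining kinesin-3 motors, KIF13A, which carries endosomes, measured -0.33, -0.43 and -0.27 on the NHE3kd arrays, against 0.25, -0.080 and -0.17 on the Ctrl arrays (-0.34, adjusted p = 0.16), and KIF1B and KIF13B had log2 fold changes of -0.10 and -0.14. KIF16B, a motor of early endosomes, measured -0.18, -0.48 and -0.52 on the NHE3kd arrays, against 0.58, 0.032 and -0.61 on the Ctrl arrays. Its Ctrl arrays spread more widely than those of any other motor gene (SD 0.59, n = 3) and enclosed the NHE3kd arrays, so that a log2 fold change of -0.39 had an interval of -1.15 to 0.36.

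Of the 13 other kinesins, 2 rose, 0 fell and 11 did not pass, shares near those of all named genes (9.96% higher and 4.51% lower), and the median log2 fold change was 0.028. KIF24, a kinesin of the mother centriole that restrains the formation of cilia, measured 0.74, 0.63 and 0.76 on the NHE3kd arrays, against -0.028, -0.014 and 0.042 on the Ctrl arrays. The groups were well apart with a log2 fold change of 0.71 (adjusted p = 0.0025, SE 0.047), and the call held without any single array (adjusted p up to 0.017). KIF21A, which slows the growth of microtubules at the cell cortex, measured 0.47, 0.77 and 0.59 on the NHE3kd arrays, against 0.11, -0.076 and -0.033 on the Ctrl arrays, a log2 fold change of 0.61 (adjusted p = 0.017, SE 0.090) that was lost without NHE3kd 10 or Ctrl 4 (adjusted p up to 0.067). Its close relative KIF21B had overlapping groups (0.042, interval -0.24 to 0.32). KIF2A, which shortens microtubules as KIF2C and KIF2B do, had a log2 fold change of -0.16 (adjusted p = 0.29), while KIF2C rose by 0.97, and the difference between them was not tested. KIF12 had the largest negative value of this class and measured -0.41, -0.56 and -0.23 on the NHE3kd arrays, against 0.17, -0.075 and -0.094 on the Ctrl arrays (-0.40, adjusted p = 0.096). KIF26A (-0.27) and KIF19 (-0.25) also had all NHE3kd arrays below all Ctrl arrays, a pattern seen for 14.7% of the named genes. KIF9 (0.15) had all NHE3kd arrays above all Ctrl arrays, as did 21.1% of the named genes.

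KIF27 was the member whose probe sets disagreed. It had 3 of them, with a mean of 0.16 (adjusted p = 0.072) for which all NHE3kd arrays lay above all Ctrl arrays. One measured 0.34, 0.60 and 0.55 on the NHE3kd arrays, against -0.081, -0.00011 and 0.082 on the Ctrl arrays, a log2 fold change of 0.50 with an adjusted p of 0.023. The others gave -0.036 and 0.0087, and which part of the gene each covers was not analysed here. The 2 probe sets each of KIF1B and KLC2 had the same sign. The log2 fold changes of KIF7, KIF26B, KIF6 and KIF25 lay between -0.093 and 0.031 with overlapping groups. KIF9-AS1 and DNAH8-AS1, the antisense transcripts, had log2 fold changes of -0.027 and -0.025, and for DNAH8-AS1 the 95% interval was -0.092 to 0.042.

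No measured chain of cytoplasmic dynein passed the test by limma, beside 9.96% of named genes that were higher and 4.51% that were lower. Of the 5 chains 1 had an unadjusted p under 0.05, as did 4838 of the 14884 named genes. For these chains the numbers were also 0 and 1 when the variances were not moderated. DYNC2I2, an intermediate chain of the ciliary dynein 2, measured 0.32, 0.24 and 0.13 on the NHE3kd arrays, against -0.086, -0.020 and 0.11 on the Ctrl arrays, with a log2 fold change of 0.23 (adjusted p = 0.13, SE 0.072). DYNC2I1, which pairs with it in the same motor, measured 0.027, -0.068 and 0.16 on the NHE3kd arrays, against 0.27, -0.22 and -0.043 on the Ctrl arrays, so that its groups overlapped (0.038, interval -0.30 to 0.37). The difference between these chains was not tested. Of the light chains of the Tctex family, DYNLT4 measured -0.20, -0.30 and -0.29 on the NHE3kd arrays, against -0.19, -0.050 and 0.24 on the Ctrl arrays (-0.27, adjusted p = 0.26), and DYNLT2 and DYNLT5 had log2 fold changes of 0.035 and -0.058.

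Among 23 measured genes of dynactin, the cofactor of dynein 1, and of dynein adaptors and regulators, 4 were higher and 1 was lower, beside 9.96% and 4.51% of all named genes, and the median was -0.0082. SPDL1, which brings dynein to kinetochores in mitosis, rose by 1.05 (SE 0.061), and HOOK1, NIN and CCDC88A rose by 0.82, 0.74 and 0.60. NDEL1, a regulator that binds dynein together with LIS1, fell by 0.58 on the log2 scale (SE 0.10, adjusted p = 0.026), whereas its relative NDE1 had a log2 fold change of 0.21 (adjusted p = 0.33). None of the dynactin subunits passed. Of 14 measured chains and assembly factors of axonemal dynein 4 were higher and 0 lower, beside the same shares of all named genes, at the most CFAP300 (0.80). Of 18 measured markers of motile ciliated cells 0 passed, again beside 9.96% and 4.51% of all named genes. Of these markers 7 lay above and 11 below 0, and the median was -0.021. By limma 3 of the markers had an unadjusted p under 0.05, as did 4838 of the 14884 named genes. Those 3 were CAPS (0.28), CFAP43 (0.21) and RSPH9 (-0.12). The largest change of the list was that of TPPP3 (-0.93, adjusted p = 0.27 by limma). Its NHE3kd arrays all lay below its Ctrl arrays, a pattern seen for 14.7% of the named genes. FOXJ1, the transcription factor of motile cilia, had a log2 fold change of -0.24 (adjusted p = 0.40 by limma), and the marker MCIDAS had one of 0.24. Both had overlapping groups. The KIFC2 kinesin, outside the rule, was lower (-0.42, adjusted p = 0.017).

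**Figure D3:**
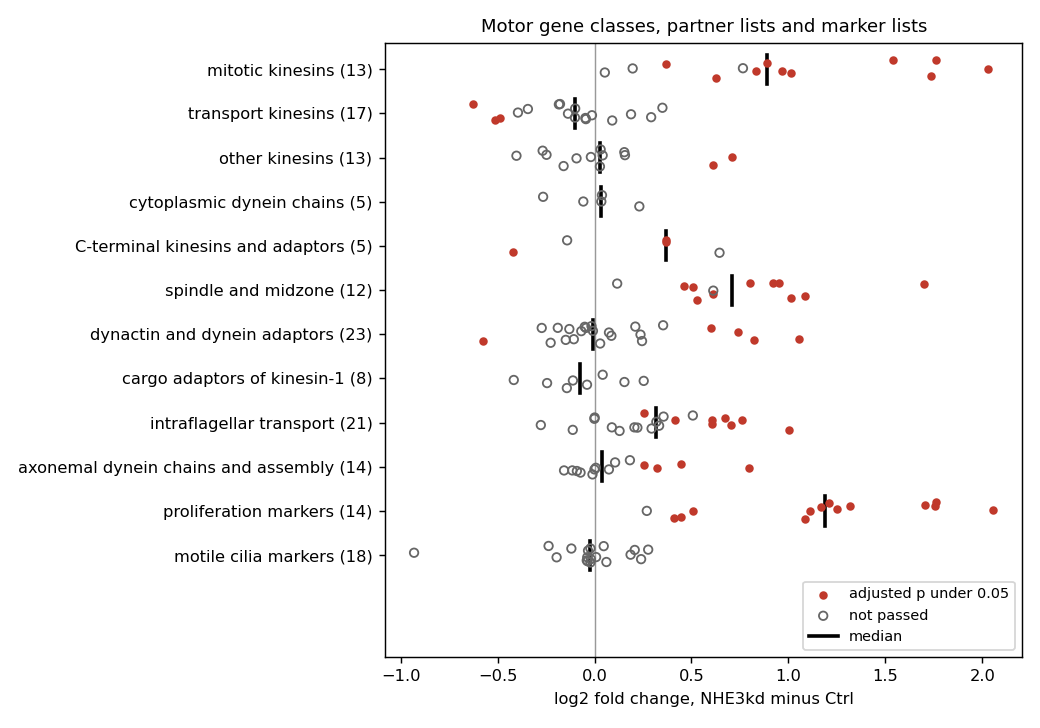
Log2 fold change (NHE3kd minus Ctrl) of each gene in the 4 classes of motor genes, the lists of their partners and 2 marker lists, with the number of measured genes in parentheses, filled points for an adjusted p under 0.05, open points otherwise and a bar at the median. The medians of mitotic kinesins (0.89), spindle and midzone proteins (0.71) and proliferation markers (1.19) lie to the right, while those of transport kinesins (-0.10), other kinesins (0.028) and dynein chains (0.035) lie near 0.

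Motif matches were counted in the promoter windows of each class. The matches rest on sequence alone and had no part in the choice of members. The classes and the motifs, however, were chosen with earlier results of these data known. A RefSeq promoter was found for 42 of the 50 genes. A CHR element stood in the window of 10 of 13 mitotic kinesins (76.9%), 1 of 13 transport kinesins (7.69%) and 1 of 9 other kinesins (11.1%), beside 17.0% of the named genes of the arrays that have a promoter and 19.5% of all genes with one. A CCAAT box was found for 10 of 13 mitotic kinesins (76.9%), 4 transport kinesins (30.8%) and 41.4% of the named genes. Both stood in the window for 9 of 13 mitotic kinesins (69.2%), 1 of 13 transport kinesins (KIF5B) and 7.1% of the named genes. No test was made of these shares. E2F motifs, some of which overlap one another, were found for KIF18A and KIF15, for 0 transport kinesins and for 8.57% of the named genes. TTCGAA reads the same on either strand. A match of letters is a description and shows no binding.

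**Figure D4:**
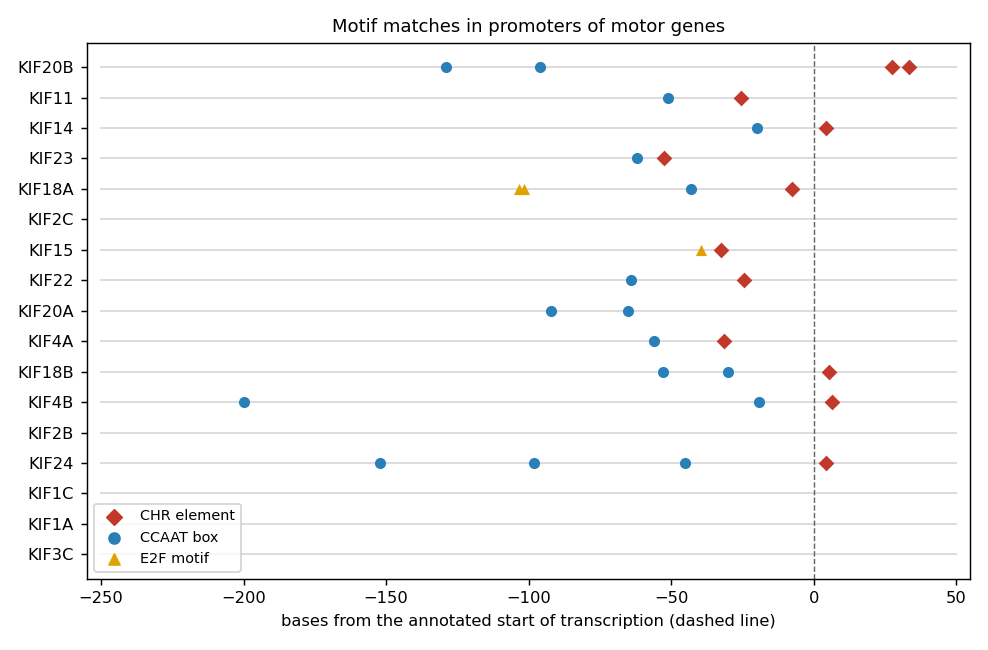
Positions of CHR elements (diamonds), CCAAT boxes (circles) and E2F motifs (triangles) in bases from the annotated start of transcription (dashed line) for the 13 mitotic kinesins, ordered by their rise, and for KIF24, KIF1C, KIF1A and KIF3C. Most mitotic kinesins have a CHR element close to the start and a CCAAT box upstream of it, while KIF2C, KIF2B and the 3 transport kinesins that were lower have no match.

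In the windows printed above, KIF11 holds a CCAAT box (as ATTGG) at -53 to -49 and a CHR element (as TTCAAA) at -28 to -23, counted from the annotated start. KIF23 holds them at -64 to -60 and -55 to -50, the closest pair among the mitotic kinesins, and KIF4A at -58 to -54 and -34 to -29. KIF20B has a pair of CHR elements in a row downstream of the start, at 25 to 30 and 31 to 36, and its CCAAT boxes lie at -131 to -127 and -98 to -94. In all 4 genes the CCAAT box thus lay upstream of the CHR element. KIF24, the kinesin of the centriole that rose, has a CHR element at 2 to 7 and 3 CCAAT boxes upstream of it. KIF5B and DYNC2I2 hold both motifs too, although their differences did not pass the test. KIF2C rose and has neither, and for KIF20A, which did not pass, CCAAT boxes alone were found. Over all named genes with a promoter, 132 of the 763 with both motifs were higher in NHE3kd cells (17.3%), against 1118 of the 9985 without them (11.2%), and the share of lower genes was 4.59% with and 4.73% without. The median log2 fold changes of these sets were 0.012 and 0.0059, while that of the mitotic kinesins was 0.89. For the E2F motifs, which only KIF18A and KIF15 hold among the mitotic kinesins, the shares of higher genes were further apart, 19% of 921 genes with a match and 10.9% of 9827 without, and the medians were 0.11 and 0.0026. Of genes with a CHR element 14.7% were higher, against 11% without one, and of genes with a CCAAT box 13.2% were higher, against 10.5% without one.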

How the data were processed

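Expression was measured in 3 NHE3kd and 3 Ctrl samples of SK-CO15 cells. For this the authors ran RMA16 in GeneSpring GX (version: not given in the sources used here). The deposited log2 values are relative to the mean of the Ctrl arrays (within 1.27e-06 of 0). The submitters' processing notes name hg19. Scan dates and other batches were not analysed here. Probe sets were named through the platform's annotation (16098 of 48144 had 1 symbol, 0 several, 32046 none), and no filter on low values was applied. Genes were tested in R 4.3.3 with limma 3.58.1 on all 48144 probe sets, with Benjamini-Hochberg adjustment at 0.05 and 1.61 prior beside 4 residual degrees of freedom. For the 3 member genes with several probe sets the mean was tested with the same prior and its p placed on the adjustment curve. The fit and the adjustment were also checked on simulated data in which no gene had several probe sets, so the averaging was not checked. Promoters of RefSeq (GRCh38.p14) were searched in Python 3.11.15, and a gene counted when any of its windows held the motif.

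The members, the functional classes, the partner lists and the motifs were chosen with earlier results of these data known. By the rule for named genes, values of each array are given for genes that passed and for those with the largest changes of each class. Array values of KIF5C, KIF3B, DYNC2I1, RACGAP1 and a KIF27 probe set, and the changes of NDE1, FOXJ1, CFAP43 and RSPH9, lie outside this rule and were chosen after they had been seen. Older names in the lists were looked up as synonyms. Precision is limited by having 3 arrays in a group. Alternatives were other tests, array weights, other scalings of the arrays, other handling of probe sets and leaving out each array.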

Additional observations from a re-analysis of the deposited data

How the results depend on the processing

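Mitotic kinesins called numbered 10. They numbered 0 with Welch's test (12 at an unadjusted p under 0.05), 4 in the test against 1.5-fold and 6 after quantile normalization, 8 with an unmoderated t-test (12 unadjusted), and 8 to 11 under the others of 15 alternatives, and the rise of KIF20B, KIF11, KIF14 and KIF23 was called under all 15 but Welch's test. Transport kinesins called numbered 3. They numbered 1 with an unmoderated t-test (KIF1C; 5 unadjusted), 0 with Welch's test, in the test against 1.5-fold and after quantile normalization, 1 to 3 when 1 array was left out (1 without NHE3kd 2, Ctrl 1, Ctrl 4 or Ctrl 9), and 4 under array weights, a common median of the arrays, or named probe sets alone. These counts of 4, and the 3 without NHE3kd 10, include KIF5B, which was higher. Chains of cytoplasmic dynein called numbered 0 under all 15 alternatives. Of all named genes 1483 were higher and 671 lower, and calls in both directions numbered 430 without moderation, 2 by Welch's test, 82 against 1.5-fold, 279 after quantile normalization and 895 to 1918 with 1 array left out. Axonemal heavy chains had no named probe set, so no alternative was run for them. No called member changed its direction under any of the 15 alternatives. Among those not called, 9 changed sign under 1 or more alternatives. KIF2B was -0.013 with array weights and -0.00054 after quantile normalization, and KIF3A was 0.0066 with array weights. With 1 array left out the log2 fold change was -0.021 to 0.13 for KIF2B, -0.060 to 0.037 for KIF3A, -0.19 to 0.043 for KIF5A, -0.10 to 0.028 for KLC4, -0.32 to 0.0029 for KLC3, -0.062 to 0.12 for KIF21B, -0.013 to 0.060 for KIF7, -0.039 to 0.0024 for KIF6 and -0.073 to 0.17 for DYNC2I1. Before quantile normalization the SD over all probe sets was 0.31 to 0.33 on the NHE3kd arrays and 0.10 to 0.14 on the centred Ctrl arrays, and after it the log2 fold change of KIF20B was 1.46. The cause of the lost calls was not tested. No paired analysis was possible because the groups share no replicate number.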
